A study of Mus musculus with 132 samples.

Results

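The sites described here are promoter sites that were open both in Flk1+ mesoderm and in hematopoietic progenitor cells (HPCs). They are the ATAC-seq peaks of wild-type mesoderm that overlapped a peak of wild-type HPCs by at least 1 bp, overlapped no CTCF ChIP-seq peak of 416B cells, and had their midpoint within 5 kb of a gene start. Of the 76766 mesoderm peaks, 8512 (11.1%) met these conditions, which is 43.0% of the 19814 mesoderm peaks shared with the list of 29037 HPC peaks. They are called shared promoter sites below. They lay within 5 kb of the starts of 8867 genes, 35.5% of the 24961 genes with a single locus in the count table, and all coordinates are on mm9.

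The cells were mouse embryonic stem cells (mESCs) of the line E14-TG2a (129/Ola), differentiated in serum-free medium. By the study's methods BMP4 was given from the start and bFGF and Activin-A from day 3, Flk1+ mesoderm was sorted on day 4, and the sorted cells were then grown with SCF and VEGF until CD41+ HPCs were taken on day 7. The stages thus differ in added factors as well as in time, and undifferentiated mESCs are day 0. Poly(A)-minus RNA-seq, which captures RNA without a poly(A) tail, covered 3 wild-type mesoderm libraries from clone B9.3, clone C6.1 and clone C8.1, 4 wild-type HPC libraries from the same clones (B9.3 with a further library, B9.3-2, plus 1 library each of C6.1 and C8.1) and 2 undifferentiated libraries that are technical replicates of 1 culture. The 2 other genotypes lacked the CTCF site just upstream of a Runx1 promoter: P1-CTCF-KO (distal promoter, 3 mesoderm and 3 HPC libraries) and P2-CTCF-KO (proximal promoter, 3 mesoderm and 5 HPC libraries). The 5 P2-CTCF-KO HPC libraries came from 3 clones, 2 of them with 2 libraries each. The ATAC-seq peaks were called once per stage, on 4 merged mesoderm libraries and 2 merged HPC libraries. By their labels the mesoderm libraries were 2 technical replicates of each of 2 biological replicates. The HPC libraries were 2 technical replicates of 1 biological replicate. By the study's methods those cells were a derivative of the line with a Venus reporter at Runx1 and an mCherry transgene driven by the Runx1 +23 enhancer. The CTCF peaks came from 416B, a mouse hematopoietic progenitor line with another genetic background, so CTCF binding in mesoderm or HPCs was not measured here. The lists hold no peak heights, and a site missing from a list was not called in it, which does not show that it was closed.

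A promoter is the stretch around a transcription start where general transcription factors and RNA polymerase II assemble. In mammals most promoters of genes used in many cell types lie in CpG islands, stretches of DNA rich in unmethylated CpG dinucleotides that stay free of nucleosomes. Transposase inserts into such nucleosome-free DNA, which is what ATAC-seq detects. Factors such as SP/KLF proteins, NFY, NRF1 and ETS factors bind short motifs in CpG-island promoters, whereas lineage factors such as GATA and RUNX proteins often act from distal enhancers.

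To show what the sites look like, the sequence of the site nearest to the gene start is given for genes among the 10 most clearly higher in HPCs, the 10 most clearly lower and the 10 with the densest RNA, leaving out sites that touch an annotated UTR. Sequences are from mm9, read in the direction of the gene, and limited to the central 300 bases. Capitals mark matches on either strand to motifs of known factors. For SP/KLF proteins the letters searched were GGGCGG, for the NFY complex CCAAT, for ETS factors CCGGAAG, and for RUNX proteins TGTGGTT. For GATA proteins they were AGATAA, for the AP-1 complex TGACTCA, for the E-box of TAL1 CAGATG, and for the TATA box TATAAA. The longer ones were TGACGTCA for CREB/ATF proteins, TGACGTAA for a shorter CREB site, GCGCATGCG for NRF1, AAGATGGCG for YY1 and TCTCGCGAG for ZBTB33, with AGGGGGCG for the CTCF core, which overlaps the SP/KLF letters. A match is a description of the letters only.
The first 2 sites belong to genes that were higher in HPCs: Cep70 (chr9:99143575-99143874, plus strand) and Cbfa2t3 (chr8:125223058-125223357, minus strand).
Cep70: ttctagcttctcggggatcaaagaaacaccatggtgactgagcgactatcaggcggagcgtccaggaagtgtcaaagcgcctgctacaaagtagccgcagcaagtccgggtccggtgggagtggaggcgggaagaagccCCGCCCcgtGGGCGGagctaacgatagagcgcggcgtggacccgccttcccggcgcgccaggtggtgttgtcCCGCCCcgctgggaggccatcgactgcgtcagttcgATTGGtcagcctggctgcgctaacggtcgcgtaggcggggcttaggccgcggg
Cbfa2t3: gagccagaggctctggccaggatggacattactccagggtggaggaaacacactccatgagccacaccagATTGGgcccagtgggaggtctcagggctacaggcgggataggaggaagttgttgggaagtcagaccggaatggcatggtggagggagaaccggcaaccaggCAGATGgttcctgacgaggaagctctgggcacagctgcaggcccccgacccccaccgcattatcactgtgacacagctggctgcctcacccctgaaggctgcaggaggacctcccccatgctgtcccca
The next 3 belong to genes that were lower in HPCs: Amot (chrX:141924637-141924730, minus strand), Lef1 (chr3:130815290-130815484, plus strand) and Tgif1 (chr17:71202349-71202450, minus strand).
Amot: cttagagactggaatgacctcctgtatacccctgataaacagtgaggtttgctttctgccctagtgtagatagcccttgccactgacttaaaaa
Lef1: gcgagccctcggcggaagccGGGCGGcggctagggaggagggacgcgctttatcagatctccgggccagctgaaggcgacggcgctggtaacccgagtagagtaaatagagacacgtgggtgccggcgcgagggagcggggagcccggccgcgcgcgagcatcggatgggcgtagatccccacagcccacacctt
Tgif1: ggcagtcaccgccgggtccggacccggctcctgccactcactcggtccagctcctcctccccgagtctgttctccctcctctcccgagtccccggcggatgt
The last 4 belong to genes with dense RNA: Eef1a1 (chr9:78329648-78329789, minus strand), Il31ra (chr13:113368383-113368527, minus strand), Gphn (chr12:79327175-79327474, plus strand) and Peg10 (chr6:4699019-4699314, plus strand).
Eef1a1: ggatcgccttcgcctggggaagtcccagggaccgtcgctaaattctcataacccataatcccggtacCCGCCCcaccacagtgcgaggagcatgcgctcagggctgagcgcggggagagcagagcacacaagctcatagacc
Il31ra: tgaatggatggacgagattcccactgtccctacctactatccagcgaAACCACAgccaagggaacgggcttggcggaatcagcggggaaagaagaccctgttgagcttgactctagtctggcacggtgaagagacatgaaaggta
Gphn: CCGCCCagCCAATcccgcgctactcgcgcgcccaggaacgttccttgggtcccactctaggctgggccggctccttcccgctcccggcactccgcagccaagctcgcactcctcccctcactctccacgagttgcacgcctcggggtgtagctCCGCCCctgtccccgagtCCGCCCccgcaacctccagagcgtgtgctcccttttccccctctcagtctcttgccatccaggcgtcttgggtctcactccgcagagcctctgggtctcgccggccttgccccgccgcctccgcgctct
Peg10: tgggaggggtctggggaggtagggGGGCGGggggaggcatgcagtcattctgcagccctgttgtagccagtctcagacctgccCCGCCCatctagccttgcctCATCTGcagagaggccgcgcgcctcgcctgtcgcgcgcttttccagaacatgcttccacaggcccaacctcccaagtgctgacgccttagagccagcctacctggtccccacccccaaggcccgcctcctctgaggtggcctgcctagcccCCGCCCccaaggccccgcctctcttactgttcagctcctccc
CpG-rich and CpG-poor sites were both among them. The Cep70 sequence had a GC content of 65.7% and held 32 CpG dinucleotides, 3 SP/KLF matches and 1 NFY match, and its midpoint lay at -34 bp from the start. The Lef1 sequence had a GC content of 69.2%, 25 CpG dinucleotides and 1 SP/KLF match, and lay in an annotated intron at 2173 bp from the start. By contrast, the Amot sequence held no CpG dinucleotide and no searched motif, had a GC content of 44.7% and lay in an annotated intron, at -2502 bp from the start given in the count table.

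Shared promoter sites sat close to the gene start. Their midpoints were at a median absolute distance of 98 bp from the nearest start, with a median signed distance of -39 bp, and 64.2% lay upstream of it. Of the 8512 sites, 82.7% were within 500 bp of a start and 57.6% covered the start itself. Of the 11424 promoter sites found in the mesoderm list only, 56.7% were within 500 bp and 19.2% covered the start, with a median absolute distance of 369 bp. A further 10.14% of the shared sites were over 1000 bp away, against 30.1% of the mesoderm-only sites. The 3 sites just inside the 5 kb limit were near Gm4861 (4967 bp), Zfp760 (-4986 bp) and Gatad2a (-4998 bp), and sites just outside it were near Gm29733 (5009 bp) and Pramel1 (-5012 bp).

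**Figure D1:**
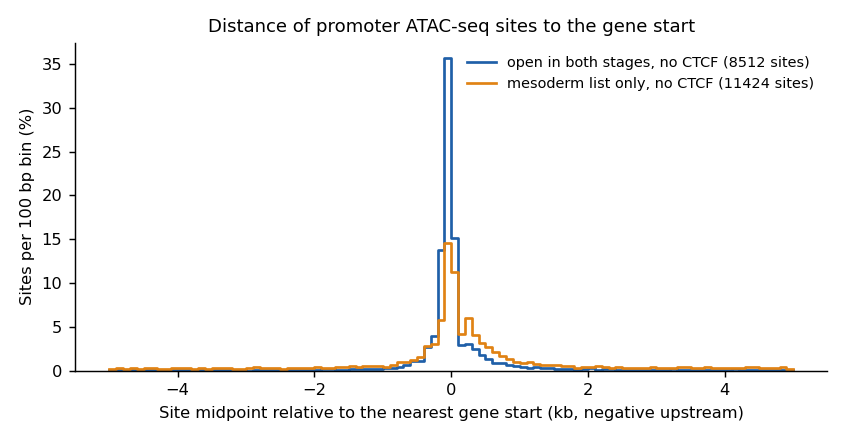
Position of promoter ATAC-seq sites relative to the nearest gene start. The x axis gives the distance of the site midpoint from the start in kb (negative upstream) and the y axis the share of sites per 100 bp bin in percent; the blue line is the 8512 sites open in both stages and the orange line the 11424 sites in the mesoderm list only. The blue line peaks higher just upstream of the start, and the orange line has a longer tail on both sides.

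By the GENCODE annotation of this build, 52.8% of the shared site midpoints were outside annotated genes, 22.8% in a UTR, 18.4% in an intron, 3.15% in a noncoding exon and 2.81% in a coding exon. For mesoderm-only promoter sites the intronic share was 31.2% and the share outside genes 37.5%. A single start lay within 5 kb of 6578 shared sites, 2 starts near 1768 and 3 or more near 166. In turn, 7244 genes had 1 such site, 1466 had 2 and 157 had 3 or more. Only 7420 of the 8867 genes were the nearest gene of a shared site, and the others lay near a site closer to another start. Nek1, a kinase of primary cilia, had the most with 5, followed by Cox20, Casp9, Dnajc16 and Rab28 with 4 each. Of the 8867 genes, 7522 were found in GENCODE by symbol, and 94.2% of these were protein coding, against 91.2% of all genes found.

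Shared promoter sites were wide peaks. Their median width in mesoderm was 228 bp, against 105 bp for mesoderm-only promoter sites, 154 bp for shared distal sites without CTCF and 114 bp for all mesoderm peaks. The median width of the overlapping HPC peaks was 157 bp, and 81.3% of the sites were wider in mesoderm. Among the 19936 promoter peaks of mesoderm without CTCF, the share also called in HPCs was greater for wider mesoderm peaks: of 4 groups of about equal size it was 10.6% in the narrowest (64 to 91 bp), 24.8% in the next (92 to 144 bp), 52.3% in the third (145 to 231 bp) and 83.6% in the widest (232 to 1006 bp). Of 4629 distal peaks in that widest range, 33.4% were shared. Over all widths, 42.7% of promoter peaks without CTCF and 14.7% of the 42707 distal ones were shared. The part of peak calling depth in these shares was not tested, since the lists hold 1 pooled call per stage. A CTCF peak of 416B cells covered 15.6% of the shared promoter peaks, which are left out here, and 35.4% of the shared distal peaks.

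The sites were rich in CpG dinucleotides. In 200 bp windows centred on the midpoints, the median GC content was 63.5% and the median ratio of observed to expected CpG 0.77. A window counted as CpG-rich when GC content was over 55% and this ratio over 0.65, and 63.4% of the shared promoter windows did so. The share was 42.4% for mesoderm-only promoter sites, 7.91% for shared distal sites and 42.5% for windows at all gene starts. Among sites within 500 bp of a start the shares were 69.5% for shared and 60.1% for mesoderm-only sites, so the classes were closer within this limit. The limit did not match distances. Of these sites, 4332 of 7038 shared and 2958 of 6474 mesoderm-only ones were within 100 bp. Shared sites over 1000 bp from a start were CpG-rich in 27.8%.

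SP/KLF, NFY and ETS letters were in larger shares of these windows than of mesoderm-only promoter and shared distal windows, and GATA, RUNX and TAL1 letters in smaller shares. The SP/KLF letters were in 59.4% of the windows, against 41.1% of mesoderm-only promoter windows, 14.6% of shared distal windows and 39.5% of windows at all starts. NFY letters were in 40.0%, against 20.0%, 24.3% and 27.6% in the same order. ETS letters were in 14.2%, against 7.32%, 3.01% and 9.21%. The GATA letters were in 3.85% of the shared promoter windows, 8.55% of the mesoderm-only promoter windows and 22.0% of the shared distal windows. RUNX letters were in 2.303%, 2.88% and 7.86%, and the TAL1 E-box in 7.05%, 11.2% and 19.01%. Within 500 bp of a start, GATA letters were in 2.44% of shared and 3.69% of mesoderm-only promoter windows. In the same order, RUNX letters were in 1.80% and 2.09%, the TAL1 E-box in 6.01% and 7.89%, and SP/KLF letters in 63.6% and 54.2%. The classes were thus closer within 500 bp for these letters and for ETS letters (16.01% and 10.21%), but not for NFY letters (41.7% and 18.2%). Distances to the start still differed between the classes within this limit. The longer letters of other general promoter factors were rare: in the shared promoter windows NRF1 was found in 2.41%, YY1 in 1.96%, CREB/ATF in 3.30% and ZBTB33 in 1.47%, against 1.18%, 1.19%, 1.33% and 0.376% of the mesoderm-only promoter windows. Motifs of different length are not compared with each other. The GC content of the windows differed between these classes, and its part in the motif shares was not tested. SP/KLF letters and CpG content share bases, so these measures are not independent.

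Genes with a shared promoter site were mostly transcribed. RNA levels are in counts per 1000000 of the effective library size (CPM) and, between genes, in CPM per kb of gene span, since introns were counted. The median level was 0.0616 CPM per kb in wild-type mesoderm and 0.0684 in HPCs. For genes with a mesoderm-only promoter site it was 0.00992 and 0.00438, and for all genes 0.00733 and 0.00507. No read in any library of the stage was found for 9.74% of the shared-site genes in mesoderm and 10.2% in HPCs, against 76.6% and 77.0% of the 7841 genes with no ATAC-seq peak within 5 kb. Without a read in all 7 wild-type mesoderm and HPC libraries were 590 (6.65%) of the shared-site genes and 33.4% of all genes. The 590 genes were short, with a median span of 4747.5 bp against 20931 bp for all shared-site genes.

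**Figure D2:**
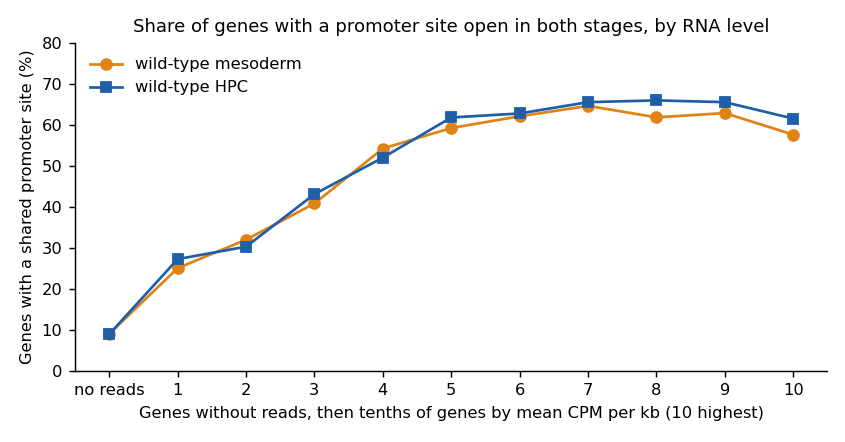
Share of genes with a shared promoter site by RNA level. The x axis holds the genes without reads and then 10 groups of the genes with reads by mean CPM per kb (10 highest), the y axis the share with a site in percent, circles are wild-type mesoderm (n = 3) and squares wild-type HPCs (n = 4). In mesoderm the share goes from 9.03% without reads to 64.6% in group 7 and 57.6% in group 10.

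The share of genes with such a site was thus not greatest at the top of the scale. With the genes with reads cut into 10 groups by level, it was 25.03% in the lowest group in mesoderm, 64.6% in the seventh and 57.6% in the highest. In HPCs it was 27.2% in the lowest group, 65.9% in the eighth and 61.5% in the highest.

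The densest RNA over genes with a shared site and a span over 1 kb came from a mixed group. Among them were H2ax (a histone variant of the DNA damage response), Eef1a1 (a translation elongation factor), Tubb5 (a tubulin) and Peg10 (an imprinted gene of retrotransposon origin). Cdk8, Lars2, Camk1d, Il31ra and Gphn also belonged to it. Cdk8, a kinase of the Mediator complex, was at 26354, 65722 and 27329 CPM in the mesoderm libraries, with B9.3 first, then C6.1, then C8.1. It was at 22727, 26811, 23809 and 20660 CPM in the HPC libraries (B9.3, then B9.3-2, then C6.1, then C8.1), and at 1009 and 2824 CPM in the undifferentiated libraries. The 2 undifferentiated libraries were thus far below the rest, and mesoderm C6.1 was highest. The ribosomal RNA entry Rn45s moved in the same way, with 21183 and 50025 CPM in the undifferentiated libraries, 397710 to 1019889 CPM in mesoderm with C6.1 highest, and 301001 to 388241 CPM in HPCs. Lars2 and Gphn were also highest in mesoderm C6.1 and lowest in the undifferentiated libraries. The labels name ribosomal RNA removal for poly(A)-minus RNA-seq in general and the study's methods for the undifferentiated cells and 416B only, and its part in the levels of these genes was not tested.

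Eef1a1 had 55.03, 65.3 and 48.4 CPM in mesoderm and 33.8, 59.3, 40.3 and 35.3 CPM in HPCs. The stages overlapped, and the difference did not pass the test (log2 fold change -0.42 ± 0.23 SE, edgeR adjusted p = 0.21). Peg10 had 202, 144 and 112 CPM in mesoderm and 28.9, 7.93, 9.70 and 15.02 CPM in HPCs. All mesoderm libraries were above all HPC libraries, and Peg10 was lower in HPCs (log2 fold change -3.30 ± 0.40 SE, edgeR adjusted p = 0.00014). Tubb5 was also lower, with 56.7 to 67.9 CPM in mesoderm and 25.1 to 31.5 CPM in HPCs.

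To ask whether genes with a shared promoter site kept their RNA level, the stages were compared by edgeR. Single-locus counts were 7057412 to 8184650 per mesoderm library and 3152227 to 4232051 per HPC library, and shared-site genes took 10.6% to 14.6% and 14.8% to 16.7% of them. These totals include Cdk8, which was very high and moved with Rn45s, so the depth left for other genes was lower. The 7 mesoderm markers summed to 35.4 to 66.0 CPM in mesoderm and 3.72 to 15.7 CPM in HPCs, and the 7 HPC markers to 26.8 to 37.6 and 166 to 270 CPM. The 5 erythroid genes summed to 0.0807 to 0.655 CPM in mesoderm and 76.7 to 204 CPM in HPCs, and the 5 pluripotency markers were at 0.327 to 1.37 and 0 to 0.116 CPM. The 4 endothelial markers summed to 68.4 CPM in mesoderm B9.3, the highest library, and to 1.15 CPM in the lowest mesoderm library, against 12.8 to 20.6 CPM in HPCs. The 3 smooth muscle and stroma markers summed to 11.8 to 41.3 CPM in mesoderm and in HPCs to 90.02 CPM in B9.3, with a median of 3.72 and a lowest value of 2.35 CPM, and Col1a1, a fibrillar collagen, took 70.7 CPM of the highest HPC sum. HPC B9.3 was also the HPC library with the highest sum of mesoderm markers. In HPCs 5 of these 7 markers had no reads, and Kdr, also listed as an endothelial gene, took 15.04 CPM of the highest sum. Of the HPC marker sum in HPCs, Runx1 took 101 to 182 CPM, and Kit and Myb of that list were not called. The part of stromal, endothelial or mesoderm cells in the stage comparison was not tested. In these bulk samples, fewer cells of a type and less RNA per cell cannot be told apart. Of the 8867 shared-site genes, 7317 (82.5%) passed the filter on low counts. That filter ran on all 9 wild-type libraries, so genes read mainly in the 2 undifferentiated libraries could pass it. In the fit of the 7 mesoderm and HPC libraries, 4661 were tested. Of the 7317, 786 (10.7%) were higher in HPCs and 680 (9.29%) lower, by adjusted p under 0.05 and a log2 fold change over 1. Of all 12899 genes tested, 10.8% were higher and 12.5% lower. The share higher was thus near the background and the share lower somewhat under it, with a median log2 fold change of 0.03 against -0.01 for all genes. With the clone as a block, fitted on the 7 mesoderm and HPC libraries, 939 of 4661 shared-site genes were called, against 1008 of 4661 in the same fit without the block. Without mesoderm B9.3, 766 were higher and 649 lower of 7181, and without HPC B9.3, 785 were higher and 776 lower of 7337.

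Genes whose promoter sites differed between the lists gave other shares. Of 3487 tested genes with a mesoderm-only promoter site and no shared one, 356 (10.2%) were higher in HPCs and 694 (19.9%) lower, with a median of -0.25. Of 115 tested genes with an HPC-only site and neither of the others, 38 (33.0%) were higher and 10 (8.70%) lower. For the 1070 tested genes with no peak within 5 kb the shares were 12.5% and 12.7%. The difference between these classes was not tested, and the classes differed in RNA level. CPM did not overlap between the 3 mesoderm and 4 HPC libraries for 1287 (17.6%) of the shared-site genes with HPCs higher and for 1035 (14.1%) with HPCs lower, against 16.3% and 16.6% of all tested genes.

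**Figure D3:**
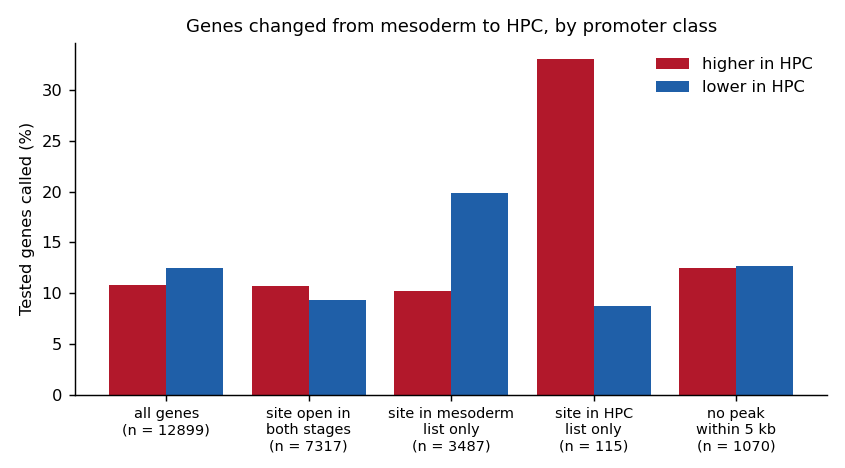
Genes called from mesoderm to HPCs by promoter class. Bars give the share of tested genes higher (red) or lower (blue) in HPCs in percent, from 0, with the number tested under each class. Genes with a site open in both stages show 10.7% and 9.29%, genes with a mesoderm-list site only 10.2% and 19.9%.

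Within the shared-site genes, other sites nearby went with small differences. Of 4099 genes with shared sites only, 10.05% were higher and 7.66% lower. Of 2720 that also had a mesoderm-only promoter site and no HPC-only one, 10.96% were higher and 11.8% lower. Of 293 that also had an HPC-only site and no mesoderm-only one, 17.7% were higher and 7.17% lower. In the 205 genes with both kinds the shares were 11.7% and 11.2%. The width of a site in HPCs relative to mesoderm had a weak relation to the change in RNA: of 4 groups of genes, 11.97% were lower in HPCs in the group with the lowest ratio, and 9.73%, 7.60% and 7.87% in the others. Across the 7317 genes, which are not independent and share the same pooled peak lists, Pearson's r was 0.09 and Spearman's rho 0.08.

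Motif shares at the sites of called genes are given as a description. GATA letters were in 6.77% of the 768 nearest sites of genes higher in HPCs, 2.84% of the 668 of genes lower and 2.37% of the 5142 of genes tested and not called. RUNX letters were in 3.39%, 1.497% and 1.81%. ETS letters were in 14.1%, 6.14% and 18.2%, and YY1 letters in 2.73%, 0.15% and 2.72%. SP/KLF letters varied less, with 65.0%, 67.1% and 63.1%.

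The genes named as most clearly higher in HPCs were among the 10 with the smallest adjusted p of the called genes whose libraries did not overlap: Nmnat3, Dapp1, Mbp, Ell2, Marchf3, Aftph, Cep70, Prkca and Cbfa2t3. Nmnat3, an enzyme of mitochondrial NAD synthesis, was at 0.157, 0.164 and 0.0807 CPM in mesoderm (libraries in the order above) and at 20.6, 22.2, 30.4 and 28.4 CPM in HPCs. Each HPC library was far above each mesoderm library. Prkca, the signalling kinase PKC-alpha, had the highest HPC level of those named: it was at 2.90, 5.40 and 8.07 CPM in mesoderm and 299, 159, 268 and 395 CPM in HPCs (log2 fold change 5.68 ± 0.44 SE, edgeR adjusted p = 1.5e-05). Cbfa2t3, a corepressor of the ETO family that works with TAL1 and GATA1, was at 4.94, 4.58 and 4.52 CPM in mesoderm and 32.1, 30.5, 23.9 and 33.0 CPM in HPCs. Its replicates were tight within each stage, and the log2 fold change was 2.67 ± 0.21 SE (edgeR adjusted p = 1.5e-05). Cep70, a centrosomal protein, rose from 1.15 ± 0.375 to 14.9 ± 2.53 CPM (SD, n = 3 and 4), and its row overlaps a gene on the other strand. Ell2, a transcription elongation factor, rose from 1.72 ± 0.666 to 33.4 ± 7.07 CPM. The log2 fold changes of the other 4 were 6.61 for Dapp1, 4.78 for Mbp, 6.86 for Marchf3 and 3.03 for Aftph.

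The 10 lower genes chosen by the same rule were Sall4, Tbx3, Amot, Greb1l, Gm37013, Lef1, Zfp703, Tgif1, Grid1 and Mtap. Sall4, a zinc finger factor of pluripotent and early embryonic cells, was at 14.1, 46.0 and 29.1 CPM in mesoderm and at 0.231, 0.517, 0.133 and 0.336 CPM in HPCs. Tbx3, a T-box factor, was at 10.3, 32.3 and 18.7 CPM in mesoderm and at 0, 0, 0.133 and 0 CPM in HPCs. HPCs held 1 Tbx3 read in all against 560 in mesoderm, a ratio of 553 with a 95% counting interval of 98.9 to 21900. Lef1, a DNA-binding effector of Wnt signalling, was at 8.23, 30.9 and 24.8 CPM in mesoderm and at 0, 0, 0.266 and 0 CPM in HPCs, and the ratio was 297 (counting interval 81.9 to 2458). For these 3 genes mesoderm B9.3 was the lowest mesoderm library, and it was still above every HPC library. Tgif1, a homeobox repressor in TGF-beta signalling, was at 2.43, 2.46 and 2.74 CPM in mesoderm and had 1 read in HPCs, in B9.3. Zfp703, a zinc finger corepressor, fell from 4.22 ± 0.360 to 0.290 ± 0.105 CPM (SD, n = 3 and 4). Amot, an actin-linked regulator of the Hippo pathway, fell from 56.9 ± 13.4 to 7.14 ± 1.57 CPM (log2 fold change -2.99 ± 0.25 SE, edgeR adjusted p = 1.9e-05). The Gm37013 row spans 889226 bp and contains 59 other rows, 55 of them protocadherin genes, so its change cannot be assigned to 1 gene.

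**Figure D4:**
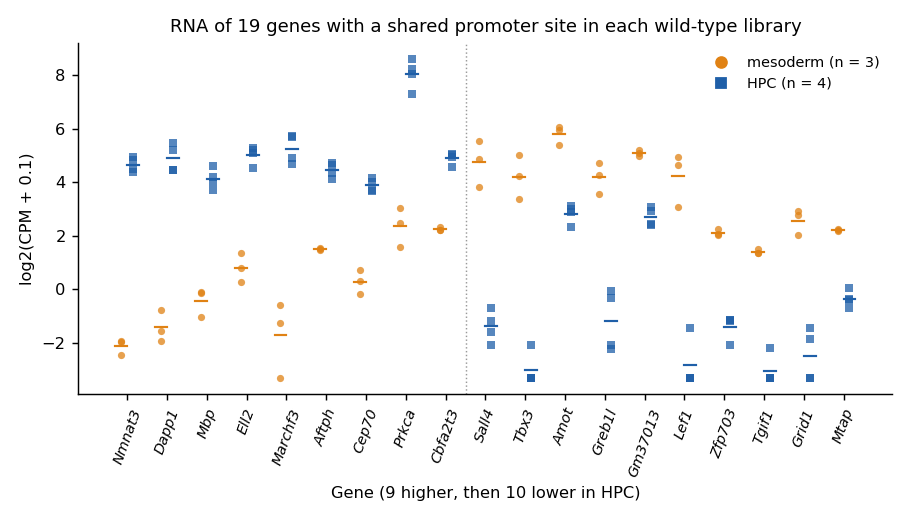
RNA of the 19 named genes in each wild-type library. The y axis is log2(CPM + 0.1); circles are the 3 mesoderm libraries, squares the 4 HPC libraries and short bars the means on that scale. The 9 genes on the left are higher in every HPC library than in any mesoderm library and the 10 on the right lower, which is how they were chosen.

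Gene lists by role are described by their counts. They hold only part of the called genes, and the shares of all tested genes to read them against are the 10.8% higher and 12.5% lower given above. Of 25 hematopoietic transcription factors, 12 had a shared promoter site and all 12 were tested: 8 were higher in HPCs (Runx1, Tal1, Zfpm1, Spi1, Meis1, Ikzf2, Nfe2 and Cbfa2t3), 1 was lower (Cbfb) and the median log2 fold change was 1.80. Runx1, the master regulator of blood emergence, was at 5.41, 17.0 and 20.8 CPM in mesoderm and 125, 101, 117 and 182 CPM in HPCs. All HPC libraries were above all mesoderm libraries, and the log2 fold change was 3.19 ± 0.43 SE (edgeR adjusted p = 0.00026). The Runx1 site (chr16:92822563-92822841) lay 3617 bp downstream of the start given in the table and was 279 bp wide in mesoderm and 89 bp in HPCs. That site falls inside a previously published Runx1 enhancer that the study lists, so it counts as a promoter site by distance only. Tal1, a basic helix-loop-helix factor needed for blood, was at 3.37, 4.26 and 3.55 CPM in mesoderm and 13.9, 13.1, 13.8 and 15.9 CPM in HPCs. Its replicates were close in both stages, and the log2 fold change was 1.94 ± 0.21 SE (edgeR adjusted p = 6e-05). Nfe2, a factor of megakaryocytes and erythroid cells, was at 0, 0 and 0.404 CPM in mesoderm and 4.98, 4.14, 3.85 and 5.49 CPM in HPCs. Spi1, the myeloid factor PU.1, had 1 read in mesoderm and 26 in HPCs, a ratio of 26.3 with a counting interval of 4.32 to 1078, and lost its call without mesoderm C8.1. Meis1, a homeobox cofactor, was at 15.8, 1.15 and 1.94 CPM in mesoderm, where B9.3 was highest, and 28.8 to 87.9 CPM in HPCs. Cbfb, the partner subunit of RUNX proteins, fell from 9.70 ± 1.31 to 4.02 ± 1.23 CPM (log2 fold change -1.26 ± 0.25 SE, edgeR adjusted p = 0.0030). Erg, Etv6 and Hhex had log2 fold changes of -2.39, 0.84 and 0.02 and were not called. Of the 12 tested factors of the list without a shared site, 8 were also higher, among them Gata1 and Gfi1b.

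Blood cell genes with a shared site rose where they were called. Of 24 genes of the blood cell surface, heme synthesis and platelets, 7 had a shared site and 5 were higher: Pf4, Epor, Tfrc, Alas2 and Slc4a1. Pf4, the platelet factor 4 chemokine, had no read in mesoderm and 5.67, 1.21, 0.930 and 3.25 CPM in HPCs, at least 8.56-fold higher against a floor of 3 counts per library. Slc4a1, the anion exchanger of red cells, had no read in mesoderm and 10.6, 26.5, 24.4 and 9.53 CPM in HPCs, at least 55.1-fold higher. Each had a site in the mesoderm peak list, while no RNA of either was detected in mesoderm at this depth. Tfrc, the transferrin receptor, was at 6.04, 8.68 and 6.86 CPM in mesoderm and 27.5, 48.3, 59.8 and 35.2 CPM in HPCs (log2 fold change 2.58 ± 0.29 SE, edgeR adjusted p = 8.3e-05). Alas2, the erythroid enzyme of heme synthesis, held 1 read in mesoderm and 375 in HPCs, a ratio of 379 with a counting interval of 67.7 to 15025. Kit and Cd44, at log2 fold changes of -0.96 and -0.81, were not called. The list's median was 3.69, or 3.10 with Pf4 and Slc4a1 at their bounds. The other 13 tested genes of the list, without a shared site, were all higher.

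Most signalling targets with a shared site were lower in HPCs. Of 23 targets and inhibitors of BMP, TGF-beta, Wnt, Notch and FGF signalling, 14 had a shared site, 13 were tested and 12 were lower, with a median log2 fold change of -3.32, where 12.5% of all tested genes were lower. Of the 7 tested genes of the list without a shared site, 5 were also lower (Smad6, Smad7, Tcf7, Spry4 and Etv4) and 0 higher, so the direction was not particular to genes with such a site. The BMP and TGF-beta side held Id1, Id3, Bambi and Skil. Id1, an inhibitor of helix-loop-helix factors, was at 1.80, 1.80 and 2.26 CPM in mesoderm and 0, 0.172, 0.266 and 0.112 CPM in HPCs. Id3 was at 2.98, 3.11 and 2.66 CPM in mesoderm and had 1 read in HPCs. The stages were far apart in both genes. Bambi, a decoy receptor, fell from 2.59 ± 0.804 to 0.381 ± 0.227 CPM, and Skil, a SMAD corepressor, from 13.6 ± 3.10 to 6.21 ± 0.914 CPM. On the Wnt side, Axin2, a feedback inhibitor, was at 2.35, 14.7 and 12.9 CPM in mesoderm and 0.579, 0.517, 0 and 0.224 CPM in HPCs (log2 fold change -4.91 ± 0.72 SE, edgeR adjusted p = 0.00048). Nkd1, another Wnt inhibitor, was at 0.706, 14.1 and 10.3 CPM in mesoderm and 2.31, 0.517, 0.664 and 0.449 CPM in HPCs. Mesoderm B9.3 was the low library for Axin2, Nkd1 and Lef1, and for Nkd1 it overlapped the HPCs. The Nkd1 call was lost with the clone block (edgeR adjusted p = 0.13). The Notch targets Hes1 and Hey1 fell by 2.97 and 3.47 on the log2 scale, from 1.46 ± 1.02 and 0.660 ± 0.666 CPM, and Hey1 lost its call in 7 of the alternatives. Of the FGF feedback genes, Spry2 fell from 1.98 ± 0.210 to 0.195 ± 0.0650 CPM, Etv5 from 4.99 ± 2.52 to 0.346 ± 0.175 CPM and Dusp6 from 3.34 ± 2.06 to 0.924 ± 0.792 CPM. The Dusp6 stages overlapped, and its call was lost without mesoderm B9.3. Id2, at -1.73 (edgeR adjusted p = 0.16), was not called, and Hey2 had too few reads to be tested.

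Genes of earlier stages were lower or not called. Of 19 primitive streak and early mesoderm factors, 3 had a shared site and only Eomes was tested: it was at 1.10, 7.69 and 2.26 CPM in mesoderm and was without reads in the 4 HPC libraries, which makes it at least 9.21-fold lower. Of 18 lateral plate and cardiac factors, 6 had a shared site, 4 were tested and Tbx3, Msx2 and Bmp4 were lower. Bmp4, a ligand used in the culture medium, was at 0.706, 2.13 and 2.503 CPM in mesoderm and 0.694, 0, 0 and 0 CPM in HPCs, and its call was lost without mesoderm C8.1. Of 20 pluripotency factors, 6 had a shared site, and Klf4, Sall4 and Tbx3 were lower. Tbx3 stands in both lists. Zfp42, tested and not called, was at 12.2 to 14.5 CPM in undifferentiated cells but at most 0.327 CPM in mesoderm and 0.112 CPM in HPCs. Such low levels in the compared stages leave little room for a call. Of 21 endothelial genes, 10 had a shared site and 5 were tested. Of these, Cdh5 and Ets1 were lower and Pecam1, Nrp1 and Robo4 were not called. Cdh5, the endothelial VE-cadherin, was at 37.1, 0.491 and 3.47 CPM in mesoderm and 1.16, 3.28, 1.196 and 0.897 CPM in HPCs. The stages overlapped, and the value rested on mesoderm B9.3: without that library the log2 fold change of Cdh5 was -0.54 and the call was lost (edgeR adjusted p = 0.58). Ets1 lost its call too, at -0.61 (edgeR adjusted p = 0.16). Genes of these lists without a shared site were lower as well: 7 of 7 tested streak and early mesoderm factors, 5 of 6 lateral plate and cardiac factors, 4 of 14 pluripotency factors and 5 of 10 endothelial genes, with 0 higher in any of the 4 lists.

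**Figure D5:**
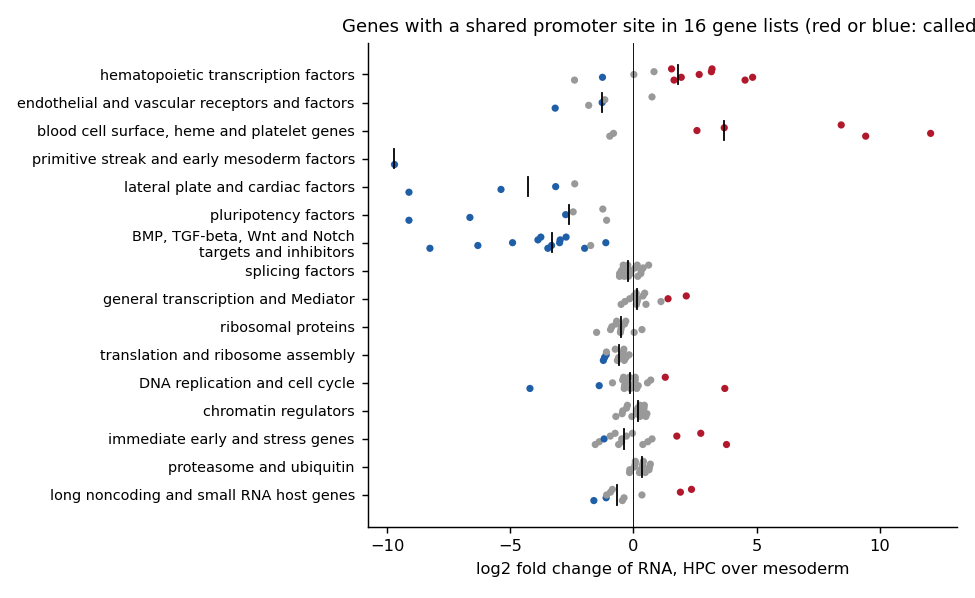
Change in RNA of tested genes with a shared promoter site in the gene lists. The x axis gives the log2 fold change of HPCs over mesoderm, each dot is a gene, red or blue dots passed the test as higher or lower, gray dots did not, and black bars are list medians. Splicing, chromatin, ribosomal protein and proteasome genes show no colored dot, most blood genes lie to the right and the signalling targets to the left, including genes without reads in 1 stage, whose position depends on the prior count.

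Splicing, chromatin, proteasome and ribosomal protein genes with a shared site were not called, while other lists of widely used genes held called genes. Of 22 splicing factors, 20 had a shared site, and edgeR called none of the 20 (range -0.56 to 0.62). Of 27 chromatin regulators 17 had a shared site and none was called, and the same held for 14 of 19 proteasome and ubiquitin genes and for 12 of 22 ribosomal protein genes. The medians of these lists were -0.22, 0.18, 0.33 and -0.52 in that order. Tested genes of the same lists without a shared site were seldom called too. The counts were 0 of 2 splicing, 0 of 5 proteasome and ubiquitin and 0 of 10 ribosomal protein genes. Among 10 chromatin regulators without a shared site, 1 was higher and 1 lower. Of 18 translation and ribosome assembly genes 13 had a shared site and Npm1, Nop56 and Nolc1, all nucleolar proteins, were lower. Npm1 was at 13.1, 18.99 and 13.2 CPM in mesoderm and 5.67, 7.76, 6.78 and 7.74 CPM in HPCs, without overlap (log2 fold change -1.11 ± 0.21 SE, edgeR adjusted p = 0.0022). Of 21 general transcription and Mediator genes 14 had a shared site, and Gtf2f1 and Hexim1 were higher. Hexim1, an inhibitor of the elongation kinase P-TEFb, rose from 0.780 ± 0.272 to 3.43 ± 1.85 CPM.

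Of 28 genes of DNA replication and the cell cycle, 21 had a shared site. Rb1 and Mki67 were higher, Ccnd1 and Cdk4 lower, and 17 were not called, among them Mcm2 to Mcm7 and Pcna. Rb1, the retinoblastoma protein, was at 2.20, 3.11 and 2.099 CPM in mesoderm and 31.8, 20.9, 26.4 and 47.0 CPM in HPCs (log2 fold change 3.71 ± 0.32 SE, edgeR adjusted p = 2.2e-05). Its row contains a gene on the other strand. Ccnd1, the G1 cyclin D1, was at 2.82, 6.22 and 5.49 CPM in mesoderm and 0.579, 0, 0 and 0.336 CPM in HPCs. Its partner kinase gene Cdk4 fell from 4.97 ± 0.624 to 1.92 ± 0.433 CPM. All 4 genes had HPC libraries that did not overlap the mesoderm libraries. Of 20 immediate early and stress genes, 18 had a shared site, the largest share of a list after the splicing factors, and 16 were tested. Btg2, Ddit3 and Trib3 were higher and Myc was lower, while Fos, Jun and Egr1, at -1.39, -0.48 and -0.60, were not called. Myc, the growth regulator, was at 5.72, 9.495 and 7.99 CPM in mesoderm and 1.97, 4.83, 4.78 and 2.13 CPM in HPCs, and its call was lost without any 1 of HPC B9.3, HPC C8.1, mesoderm C6.1 and mesoderm C8.1. Of 17 noncoding RNA genes, 10 had a shared site. Neat1 and Dleu2 were higher. The rows of Bmp4, Ccnd1, Ddit3, Dleu2, Nop56 and Cdh5 overlap or contain other genes, so their reads may be shared. Rmrp and Rpph1, the RNA parts of RNase MRP and RNase P, were lower, with 165 to 275 against 44.2 to 102 CPM for Rmrp and 272 to 403 against 107 to 264 CPM for Rpph1.

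Many shared sites lay between 2 genes that start in opposite directions. There were 827 such pairs with starts at most 1000 bp apart, at a median gap of 157 bp, and both genes were tested in 564. Neither gene was called in 445 pairs, 1 of them in 102 and both in 17. As a background, 20.0% of all tested shared-site genes and 23.3% of all tested genes were called in either direction. In 16 of the 17 both moved the same way, 12 higher and 4 lower. How often unpaired genes would move the same way was not examined. The 4 lower pairs, named after their values were seen, were Peg3 with Usp29 (-2.63 and -2.86), A230077H06Rik with Vstm2b (-8.58 and -10.10), Slc25a27 with Cyp39a1 (-1.84 and -4.79) and Acvr1 with Upp2 (-1.93 and -2.79). Peg3 and Usp29 are imprinted genes that share a promoter region. The exception was Rgl1 (-1.94) with Arpc5 (2.098), also named after their values were seen. Across the 564 pairs the log2 fold changes had a Pearson's r of 0.35 and a Spearman's rho of 0.22, as a description, since the pairs share libraries.

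The deletions of the CTCF sites at Runx1 were compared with wild type within each stage, and both comparisons use the same wild-type libraries. In P2-CTCF-KO mesoderm, 3 of 5457 tested shared-site genes were lower and 0 higher by edgeR, against 0.0342% and 0% of all 8778 genes tested. At an unadjusted p under 0.05 there were 789 shared-site genes (14.5%), against 16.04% of all genes. DESeq2 called 69 shared-site genes (1.26%), 62 of them lower, against 1.87% of all genes tested. The 3 genes by edgeR were Cbfa2t3, Ikzf2 and Prkar2b, which are thus all of the genes called in that comparison. CPM here are scaled within the 9 mesoderm libraries and are lower than those above. Cbfa2t3 was at 2.62, 2.46 and 2.38 CPM in the wild-type libraries (order as above) and at 0.253, 0.340 and 0.484 CPM in P2-CTCF-KO clones D10.1, D2.1 and E9.1 (log2 fold change -2.78 ± 0.31 SE, edgeR adjusted p = 0.022). Ikzf2, the Ikaros family factor Helios, was at 3.16, 2.46 and 4.09 CPM in wild type and 0.709, 0.612 and 0.376 CPM in P2-CTCF-KO (log2 fold change -2.52 ± 0.31 SE, edgeR adjusted p = 0.026). Prkar2b, a regulatory subunit of protein kinase A, was at 3.87, 2.20 and 4.09 CPM in wild type and 0.557, 0.544 and 0.968 CPM in P2-CTCF-KO (log2 fold change -2.30 ± 0.31 SE, edgeR adjusted p = 0.037). None of the 3 overlapped between the genotypes. The calls depended on single libraries: leaving out 1 library at a time gave 0 to 55 called genes, with 0 without any 1 of the P2-CTCF-KO clones, P1-CTCF-KO E7.1 or E9.1 or wild-type C8.1, and 55 without wild-type C6.1. The sizes changed little: over all alternatives the log2 fold change was -3.07 to -2.56 for Cbfa2t3, -2.74 to -2.29 for Ikzf2 and -2.63 to -2.16 for Prkar2b. The same 3 genes were higher in wild-type HPCs than in mesoderm. In P1-CTCF-KO mesoderm they were at 1.82 ± 0.430, 2.23 ± 0.453 and 3.14 ± 0.289 CPM (SD, n = 3) and were not called.

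In HPCs the libraries of the genotypes overlapped for all 3 genes. Cbfa2t3 was at 20.9 ± 3.24 CPM in wild type (SD, n = 4) and 18.8 ± 3.38 in P2-CTCF-KO (SD, n = 5), Ikzf2 at 12.6 ± 2.18 and 12.7 ± 3.48, and Prkar2b at 69.2 ± 22.0 and 57.0 ± 32.0. None was called. Runx1 itself was at 2.87, 9.15 and 10.98 CPM in wild-type mesoderm and 1.47, 5.50 and 4.89 CPM in P2-CTCF-KO mesoderm, with overlap (log2 fold change -0.96 ± 0.58 SE, edgeR adjusted p = 0.45). edgeR called 0 shared-site genes in the other 3 comparisons, against 0% of all genes tested. At an unadjusted p under 0.05 there were 94 of 5457 (1.72%) in P1-CTCF-KO mesoderm, 94 of 4743 (1.98%) in P2-CTCF-KO HPCs and 161 of 4743 (3.39%) in P1-CTCF-KO HPCs. The shares of all genes tested were 1.91%, 1.95% and 3.503%, and DESeq2 called 0 in each.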

How the data were processed

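The authors deposited read counts per gene for 23 poly(A)-minus RNA-seq libraries. Per their methods, reads were aligned to mm9 with STAR, duplicates were removed with picard, and featureCounts counted reads over exons and introns. The strand setting and the annotation release are not given in the sources used here, so rows that overlap on opposite strands may share reads. The ATAC-seq peaks were called by the authors with MACS2 on merged libraries of each stage (adjusted p-values under 0.05, short inserts), and the CTCF peaks on merged ChIP-seq libraries of 416B cells against an input. The deposited peak lists hold positions only. Columns of all 23 libraries were used, and 0 count columns were left out.

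The sites, gene lists and named-gene rule were chosen with earlier results of these data known. A gene start was the start of a plus-strand row or the end of a minus-strand row. Of 25146 rows, 135 at several loci and 50 spanning over 2.5 Mb were left out. Counts were tested with the edgeR (4.0.16) quasi-likelihood test in R 4.3.3 (TMM scaling, filterByExpr with a minimum count of 10, Benjamini-Hochberg adjustment over all genes tested). A gene was called at an adjusted p under 0.05 and a log2 fold change over 1 in size. The stage fit held 9 wild-type libraries, among them the 2 undifferentiated ones, which were not compared but shared in the estimate of the spread. The genotype fits held 9 mesoderm and 12 HPC libraries. DESeq2 (1.42.0) was an alternative, with other scaling, filters, site rules and leaving out each library. The steps were tested on simulated data. The p-values measure the spread between these clones and libraries, which may in part be technical. In the stage fit that spread includes the 2 technical replicates of 1 undifferentiated culture. Further libraries of a clone, such as B9.3-2, counted as separate libraries.

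Genes were named if called and in a list, among the 10 with the smallest adjusted p per direction without overlap of libraries (5 between genotypes), among the 10 of densest RNA over 1000 bp long, among the 5 with the most sites, at the 5 kb limit, or named by the study. Some genes and sequences that this rule selects are not reported here. Clone names pair the stages, since the same clones were differentiated. The correlation of deviations from the stage means over 7343 genes was -0.03 for B9.3, 0.22 for C6.1 and -0.09 for C8.1. Sequences were read with pysam 0.24.0 from the mm9 assembly, and exons, introns and UTRs are from GENCODE. Intervals of count ratios are exact binomial intervals at 95% and, like the floor of 3 counts, cover counting error only.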

Additional observations from a re-analysis of the deposited data

Results flagged for a closer look

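In 15 of 95 groups of HPC libraries looked at for named genes, 1 library stood apart from the others by Dixon's criterion at the 95% level, and chance gives about 1 in 20. Several of these are genes near 0 reads, where 1 or 2 reads set a library apart. Among the wild-type HPC libraries, Tbx3 was at 0.133 CPM in C6.1 with the other libraries at 0. Lef1 was at 0.266 CPM and Id3 at 0.133 CPM in the same library, again with 0 elsewhere. Zfp703 was lowest in C6.1 at 0.133 CPM, with a median of 0.341 CPM. Tgif1 was at 0.116 CPM in B9.3, Msx2 at 0.224 CPM in C8.1 and Hey1 at 0.224 CPM in C8.1, each with 0 in the others.

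Other genes had more reads. In HPC B9.3, Bmp4 was at 0.694 CPM with a median of 0, and Nkd1 was at 2.31 CPM with a median of 0.591 CPM. In HPC B9.3-2, a second library of that clone, Cox20 was at 1.03 CPM (median 0.373), Cdh5 at 3.28 CPM (median 1.18), Hes1 at 0.69 CPM (median 0.0561) and Nolc1 at 3.62 CPM (median 1.91). Of the P2-CTCF-KO HPC libraries, D2.1 was highest for Eomes at 1.13 CPM (median 0.0915) and D10.1 for Meis1 at 79.0 CPM (median 21.0). The cause of these values was not tested.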

How the results depend on the processing

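The number of shared promoter sites was 7649 to 10090 under other limits on overlap, distance and CTCF, and 5499 when only the wider peaks of each list were used. The number of shared-site genes called between the stages was 1466, and 1195 to 1561 when 1 library at a time was left out. It was 939 with the clone as a replicate block, which rests on 7 libraries and 4661 tested genes, and 1008 in that fit without the block. In the P2-CTCF-KO mesoderm comparison 3 genes were called, against 69 with DESeq2, 169 with no filter on low counts, 8 with all 23 libraries in 1 fit, and 0 to 55 when 1 library was left out. The cause of these differences was not tested. The counts were 0 in the other 3 genotype comparisons under every alternative run. No paired analysis was possible because the genotypes are different clones. Of 73 named called genes, 20 lost the call in at least 1 alternative, 65 of 1125 pairs of gene and alternative, and none changed direction. Under the block the calls of Rab28 (edgeR adjusted p = 0.075), Nkd1 (0.13) and Gtf2f1 (0.067) were lost. Of the 70 genes named as called between the stages, 14 with low counts were not tested in that fit, and the other calls were kept. Without mesoderm B9.3 the adjusted p was 0.092 for Klf4, 0.081 for Dusp6 and 0.065 for Gtf2f1. Without mesoderm C6.1 it was 0.059 for Rab28, 0.063 for Nkd1, 0.08 for Hes1, 0.058 for Gtf2f1 and 0.051 for Btg2, and the log2 fold changes of Npm1 (-0.92) and Nop56 came under the threshold in size. Without mesoderm C8.1 it was 0.058 for Spi1, 0.082 for Bmp4, 0.058 for Nkd1, 0.061 for Btg2, 0.057 for Trib3, 0.057 for Rpph1 and 0.081 for Rab28. Without HPC B9.3 the calls of Cdh5, Hey1, Npm1, Myc and Rpph1 were lost, without HPC B9.3-2 that of Hey1, without HPC C6.1 those of Cdh5, Ets1, Hes1, Hey1 and Rpph1, and without HPC C8.1 those of Cdh5, Ets1, Nkd1, Hes1 and Myc, at adjusted p up to 0.088. Hey1 was also lost with DESeq2 (0.059). Alternatives chosen after seeing the data were the summed clones (1523 genes), wider sites (1022 genes) and long rows kept (8515 sites). Low counts limit genes with few reads, and peaks without heights limit any statement on the degree of opening.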
